A study of Mus musculus with 19 samples.

Results

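The genes described here are 30 genes of glutamate signalling. They are 4 AMPA receptor subunits (Gria1 to Gria4), 5 kainate receptor subunits (Grik1 to Grik5), 7 NMDA receptor subunits (Grin1, Grin2a to Grin2d, Grin3a and Grin3b), 7 metabotropic receptors (Grm2 to Grm8), the delta receptor Grid1, the vesicular transporters Slc17a6, Slc17a7 and Slc17a8, the glutaminase Gls2, the glutamate carrier Slc1a1 and the glutamine carrier Slc38a1. All 30 were taken by name from a count table of 52636 genes. Their counts were read in single cells picked by hand from the lateral hypothalamic area of 7 male mice. They were 6 to 8 weeks old and carried Agrp-IRES-Cre x Ai9, in which Cre driven from the Agrp locus labels AGRP neurons with a red fluorescent protein. The picked cell bodies were those without fluorescence, and every cell carried the same alleles and no treatment. Cells were held in 19 plates, the replicates here, and which mouse filled which plate is not stated.

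Of 1612 wells labelled as this area, 1534 had at least 1000 genes and were kept. Hcrt neurons, which make the arousal peptides called orexins or hypocretins, were the 1065 cells with at least 1% of their counts in Hcrt. Pmch neurons, which make melanin-concentrating hormone, were the 68 cells with at least 1% in Pmch. Cells outside both gates were split by the genes of the enzymes that make GABA, into 327 Gad cells with at least 5 counts of Gad1 plus Gad2 and 71 remaining cells with fewer. A further 3 cells passed both peptide gates and entered no class. Near the Hcrt gate, 6 cells lay between 1% and 2% and 44 between 0.5% and 1%, and 186 of the 398 cells outside both peptide gates had at least 0.2% of their counts in Hcrt. Near the Gad gate, 12 cells outside the peptide gates had 5 to 7 counts and 8 had 3 or 4. The gates left overlaps in transmitter genes, since 155 Hcrt neurons and 66 of the 68 Pmch neurons also had at least 5 counts of Gad1 plus Gad2. In Pmch neurons these were nearly all Gad1, with 2036 counts against 20 of Gad2 and 2 of Slc32a1, the vesicular transporter of GABA. Gad cells had 5218, 6504 and 533 counts of the same genes.

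Kept wells summed to between 1835641 and 5067927 counts per plate, with 44 to 86 wells each. The median cell had 45722 counts among Hcrt neurons, 59063 among Pmch neurons, 24486 among Gad cells and 24969 among remaining cells, so shares of cells with a count are also given after each cell was thinned to 16000 counts outside Hcrt and Pmch. Pan-neuronal genes were present in every class, but 13 Hcrt neurons, 3 Gad cells and 9 remaining cells fell outside a gate on pan-neuronal against non-neuronal markers. On replicate 19 this held for all 4 of its remaining cells. The summed level of the pan-neuronal list in remaining cells ran from 214.1 CPM (counts scaled to a common library size) on the lowest plate to 11120 on the highest, and that of the oligodendrocyte list from 31.65 to 9871. For Slc17a6, Gria1, Gria2, Grin1, Grm7 and Grid1 the difference from remaining cells is given with and without the cells outside this gate, and the other values of remaining cells include them. The 384 well barcodes were each used on 4 or 5 plates, and no pair of plates held identical values.

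Glutamate is loaded into synaptic vesicles by the Slc17a6 to Slc17a8 transporters, and cells that lack them do not release it from vesicles. On the receiving side, AMPA receptors carry the fast current, and those that contain the Gria2 subunit pass little calcium. NMDA receptors need Grin1 and take further subunits that set how long their current lasts, with Grin2b dominant early in life and Grin2a added later in many brain areas. Kainate channels are built on Grik1, Grik2 or Grik3, to which Grik4 and Grik5 add high affinity. Metabotropic receptors act through G proteins, with Grm5 mostly excitatory and postsynaptic and Grm7 and Grm8 mostly on axon terminals, where they reduce release. In the lateral hypothalamus Hcrt neurons are known to be driven by glutamate and to release it.

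Gria2, Grin1 and Grik3 were each lower in Hcrt neurons than in Gad cells, and the 250 bases before their start sites are shown for a subunit of each of the 3 ion channel families. The sequences are from RefSeq on build GRCm38.p6, in which 19 of the 30 genes had an entry, and are written 5′ to 3′ on the gene's own strand. The windows are chr3:80802836-80803085 on the minus strand for Gria2, chr2:25319188-25319437 on the minus strand for Grin1 and chr4:125490446-125490695 on the plus strand for Grik3. Capitals mark the GC box GGGCGG on either strand.
Gria2: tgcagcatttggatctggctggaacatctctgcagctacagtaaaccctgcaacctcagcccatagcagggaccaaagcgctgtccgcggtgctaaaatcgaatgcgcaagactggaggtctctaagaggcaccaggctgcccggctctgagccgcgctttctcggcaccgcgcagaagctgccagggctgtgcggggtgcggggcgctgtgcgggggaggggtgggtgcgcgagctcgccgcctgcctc
Grin1: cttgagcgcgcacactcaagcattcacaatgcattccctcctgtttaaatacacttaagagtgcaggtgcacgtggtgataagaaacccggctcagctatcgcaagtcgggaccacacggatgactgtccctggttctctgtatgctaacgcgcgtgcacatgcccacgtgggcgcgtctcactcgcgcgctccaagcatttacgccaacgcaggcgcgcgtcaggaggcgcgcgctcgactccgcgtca
Grik3: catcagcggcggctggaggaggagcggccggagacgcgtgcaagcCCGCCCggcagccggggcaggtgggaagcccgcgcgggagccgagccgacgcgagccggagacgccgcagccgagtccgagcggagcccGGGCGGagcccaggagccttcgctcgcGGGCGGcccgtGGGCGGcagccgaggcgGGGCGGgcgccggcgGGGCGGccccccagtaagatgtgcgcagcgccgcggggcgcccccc
The Grik3 window was 82.0% G and C with 42 CpG pairs and held 6 GC boxes, against 64.8% and 19 pairs for Gria2 and 58.8% and 27 pairs for Grin1, which held none. Over 32851 promoters of the same length the median was 52.4% G and C, and 32.7% held a GC box. None of the 3 windows held TATAAA (12.4% of all), the cyclic AMP response element TGACGTCA (1.55%) or the core of the RE1 element (0.03%) on either strand, so no match overlapped another motif.

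The sums of counts of a class on each plate were compared with edgeR, and a call is an adjusted p under 0.05 over all genes tested. Against Gad cells, Hcrt neurons had 2 of the 21 tested members higher and 10 lower (16 plates, 833 and 321 cells). Among all 9271 genes tested there, 39.0% were called, 21.7% higher and 17.2% lower. Against Pmch neurons, 6 of 17 tested members were higher in Hcrt neurons and 6 lower (13 plates, 756 and 61 cells), where 30.6% of all 7796 tested genes were called, 17.5% higher and 13.2% lower. Against remaining cells only Grm7 of 15 tested members was called (10 plates, 472 and 59 cells), where 6.98% of genes were called, 6.27% higher and 0.702% lower, and between Gad cells and remaining cells only Slc17a6 of 12 (10 plates, 257 and 59 cells), where 0.799% were, 0.648% higher and 0.151% lower. The median log2 difference of the tested members was -0.39 against Gad cells, 0.12 against Pmch neurons and 0.14 against remaining cells, beside 0.03, 0.11 and 0.28 over all tested genes. The first 3 comparisons share the Hcrt neurons. The fold changes are relative to TMM scaling (trimmed mean of M-values). With library totals in its place, the median over all genes against Gad cells moved from 0.03 to -0.38, the share of calls that were higher from 55.8% to 16.8%, and the members to 1 higher and 16 lower. The 9 members Grin2c, Grin2d, Grin3b, Grm2, Grm3, Grm4, Grm6, Slc17a7 and Slc17a8 were under the count filter in all 4 comparisons.

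**Figure D1:**
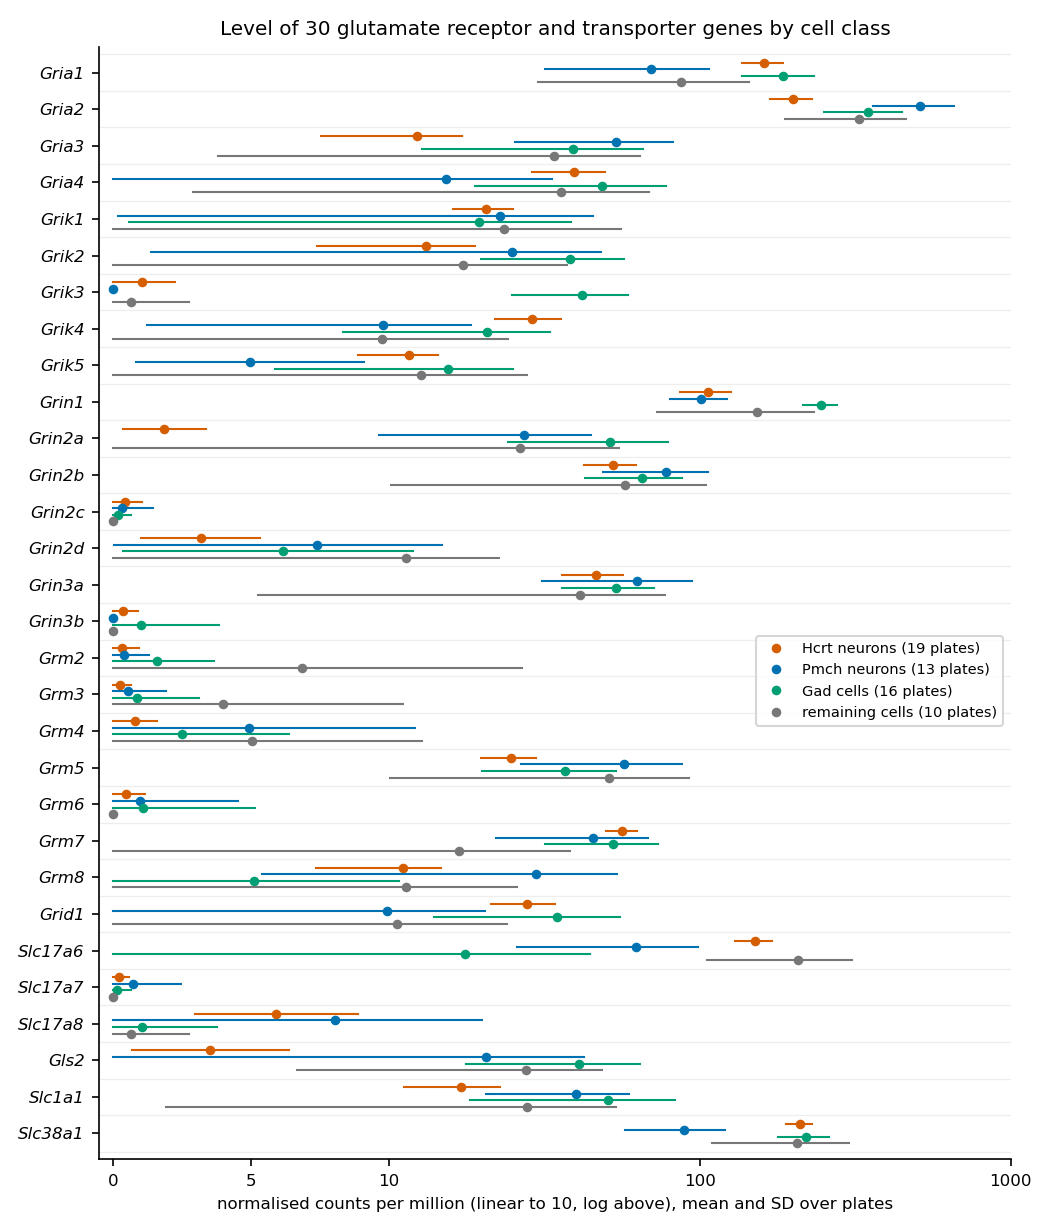
Mean normalised CPM of the 30 genes (x axis, linear up to 10 and logarithmic above; points are means and bars SDs over plates) in the 4 cell classes. Grik3 stands near 0 in 3 classes and at 41.8 in Gad cells, and Slc17a6 is lowest in Gad cells.

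**Figure D2:**
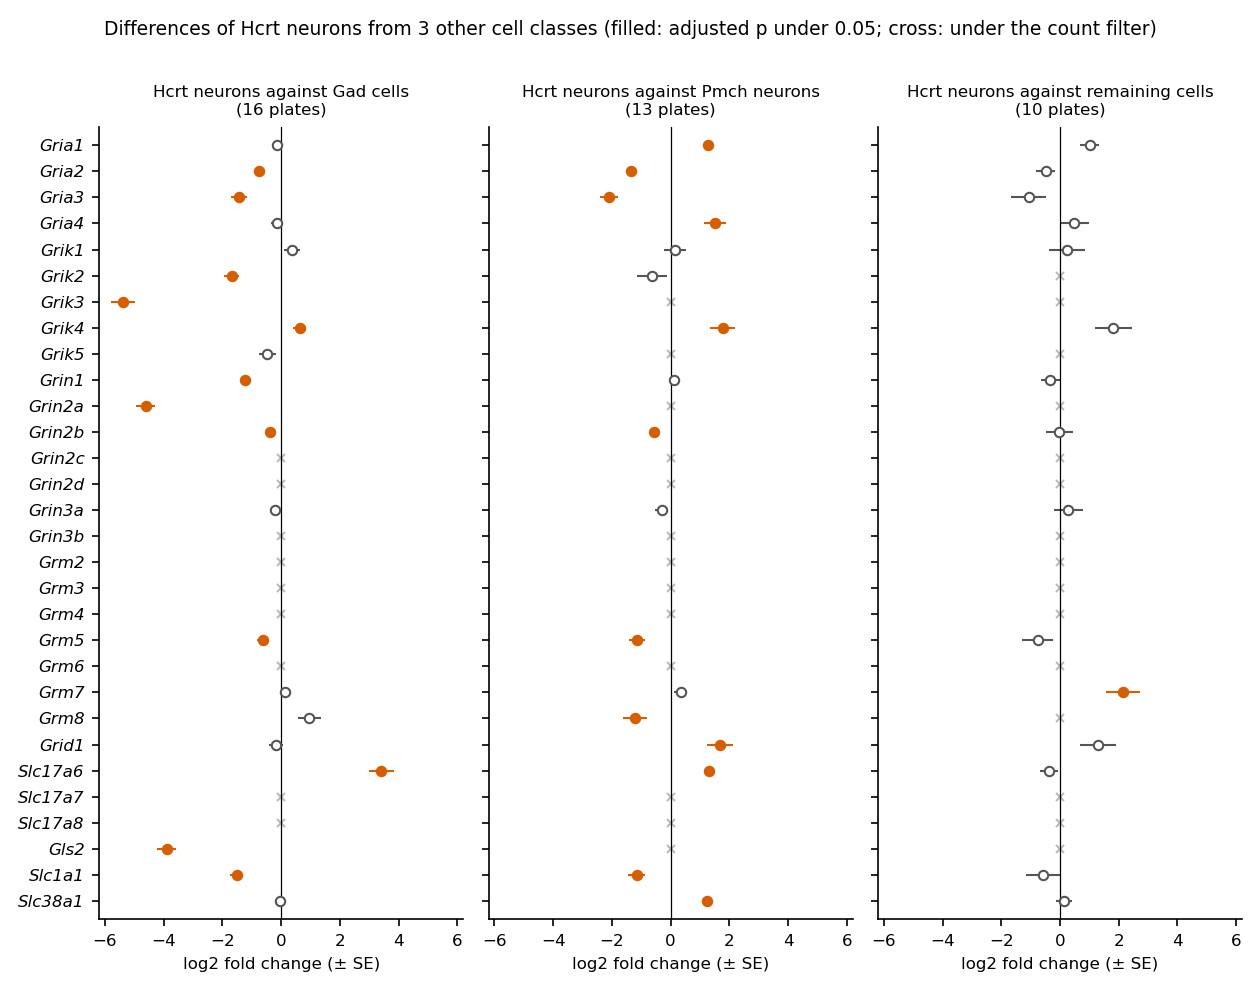
Log2 fold change of each gene in Hcrt neurons against 3 other classes (x axis; bars are standard errors, filled points passed an adjusted p of 0.05, crosses were under the count filter). Grik3, Grin2a and Gls2 lie farthest to the left against Gad cells, and Slc17a6 farthest to the right. Grik3, Grin2a and Gls2 passed the count filter there through the Gad cells alone, and Slc17a6 through the Hcrt neurons.

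The vesicular transporter Slc17a6 (chromosome 7, 51622006 to 51671119, GRCm38) was the transporter of the Hcrt, Pmch and remaining classes. On the scale of normalised CPM (CPM after TMM scaling) it ran from 93.4 through a median of 150.3 to 192.8 over the 19 plates of Hcrt neurons, and from 8.14 through 62.4 to 132.3 over 13 plates of Pmch neurons. In Gad cells it ran from 0 through 6.35 to 100.7 over 16 plates, and in remaining cells from 0 through 223.3 to 398.4 over 10. Hcrt neurons were above Gad cells in 16 of 16 plates by a log2 value of 3.41 ± 0.43 (SE, adjusted p = 5.78e-06), and above Pmch neurons in 13 of 13 plates by 1.32 ± 0.19 (adjusted p = 2.80e-07). The ranges of the plates overlapped in both comparisons. Against Gad cells, with 3 of 16 Gad plates at 0, Slc17a6 passed the filter through the Hcrt neurons, so that p-value is no added support. Gad cells were below remaining cells by 4.03 ± 0.52 in log2 in 9 of 10 plates (adjusted p = 4.37e-05). Slc17a6 passed the filter there mostly through the remaining cells, so this p-value is no added support either. With peptide gates at 0.2%, or outside cells under 0.2% of both peptides, the value was as large but not called (-5.09 ± 1.02, adjusted p = 0.104, 5 plates), and without replicate 4 Slc17a6 was not among the genes tested. Of the 210 Slc17a6 counts in Gad cells 78 were in a single cell, and replicate 4 was the highest plate, at 100.7. Replicate 19 was the only plate of remaining cells whose Slc17a6 sum was 0. Without it Slc17a6 was lower in Hcrt neurons than in remaining cells by a log2 value of -0.67 ± 0.21 (adjusted p = 0.0290), and with only the cells inside the neuron gate by -0.71 ± 0.21 (adjusted p = 0.0142). With all plates the value was -0.37 ± 0.30 and was not called (adjusted p = 0.583).

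Cell by cell, at least 2 counts of Slc17a6 were seen in 842 of 1065 Hcrt neurons (79.1%), 40 of 68 Pmch neurons (58.8%), 12 of 327 Gad cells (3.67%) and 46 of 71 remaining cells (64.8%). A count of it was seen in 1 control well without a picked cell (0.971% of these wells, median 169 counts). Slc17a8, the transporter of scattered neuron groups that also use other transmitters, had 272 counts in Hcrt neurons and 35 in Pmch neurons, against 9 in Gad cells and 4 in remaining cells. At least 2 counts of it were found in 58 Hcrt neurons (5.45%), of which 51 also had at least 2 of Slc17a6, and in 8 Pmch neurons, of which 5 did. After thinning, 4.69% of Hcrt neurons (95% interval 3.47 to 6.19) and 4.41% of Pmch neurons (0.919 to 12.4) kept a count, and 1.94% of control wells (0.236 to 6.84) had 1 at their far lower depth. Slc17a7, the main transporter of cerebral cortex, had 10, 3, 2 and 0 counts in the 4 classes, and a count in 0.939% of Hcrt neurons, 4.41% of Pmch neurons and 0.971% of control wells.

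Gls2 (chromosome 10, 128194457 to 128210004) makes glutamate from glutamine in mitochondria. Its level ran from 0 through a median of 3.22 to 12.8 normalised CPM in Hcrt neurons, from 0 through 15.9 to 79.6 in Pmch neurons, from 12.3 through 38.8 to 109.1 in Gad cells and from 0 through 30.4 to 56.7 in remaining cells. Within the 16 plates tested, every plate of Hcrt neurons was below every plate of Gad cells, a difference of 14.9-fold (log2 -3.90 ± 0.32, adjusted p = 1.94e-14). Gls2 passed the filter there through the Gad cells alone, so the p-value is no added support, and was under it against the other classes. Without the filter its log2 value in Hcrt neurons was -2.24 ± 0.52 against Pmch neurons and -3.17 ± 0.72 against remaining cells. Gls2 was lower in Hcrt neurons in 10 of 13 and 8 of 10 plates. Its exons overlap Spryd4 on the opposite strand by 97 bases, and the use of strand in counting is not given in the sources used here.

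Slc1a1, the glutamate carrier of neurons, was 16.97 ± 5.84 normalised CPM in Hcrt neurons (SD, n = 19 plates), 39.8 ± 19.3 in Pmch neurons (n = 13), 50.8 ± 32.5 in Gad cells (n = 16) and 27.9 ± 25.9 in remaining cells (n = 10). It was lower in Hcrt neurons than in Gad cells by a log2 value of -1.52 ± 0.22 (15 of 16 plates, adjusted p = 1.18e-07) and than in Pmch neurons by -1.15 ± 0.29 (11 of 13 plates, adjusted p = 0.00191). With at least 5 cells per plate the second call was lost at nearly the same size (-1.12 ± 0.43, adjusted p = 0.0615). Slc1a1 shares 2631 exonic bases with 4430402I18Rik on the opposite strand, which stood at 1.32, 1.54, 3.31 and 0.276 in the same classes. Slc38a1, which brings glutamine into neurons, was at 209.4 ± 19.7 in Hcrt neurons, 218.9 ± 40.7 in Gad cells and 205.7 ± 96.4 in remaining cells, differences that were not called. Pmch neurons were lower, at 88.8 ± 31.3, and every plate of Hcrt neurons in that test was above every plate of Pmch neurons (log2 1.23 ± 0.14, adjusted p = 5.51e-09).

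**Figure D3:**
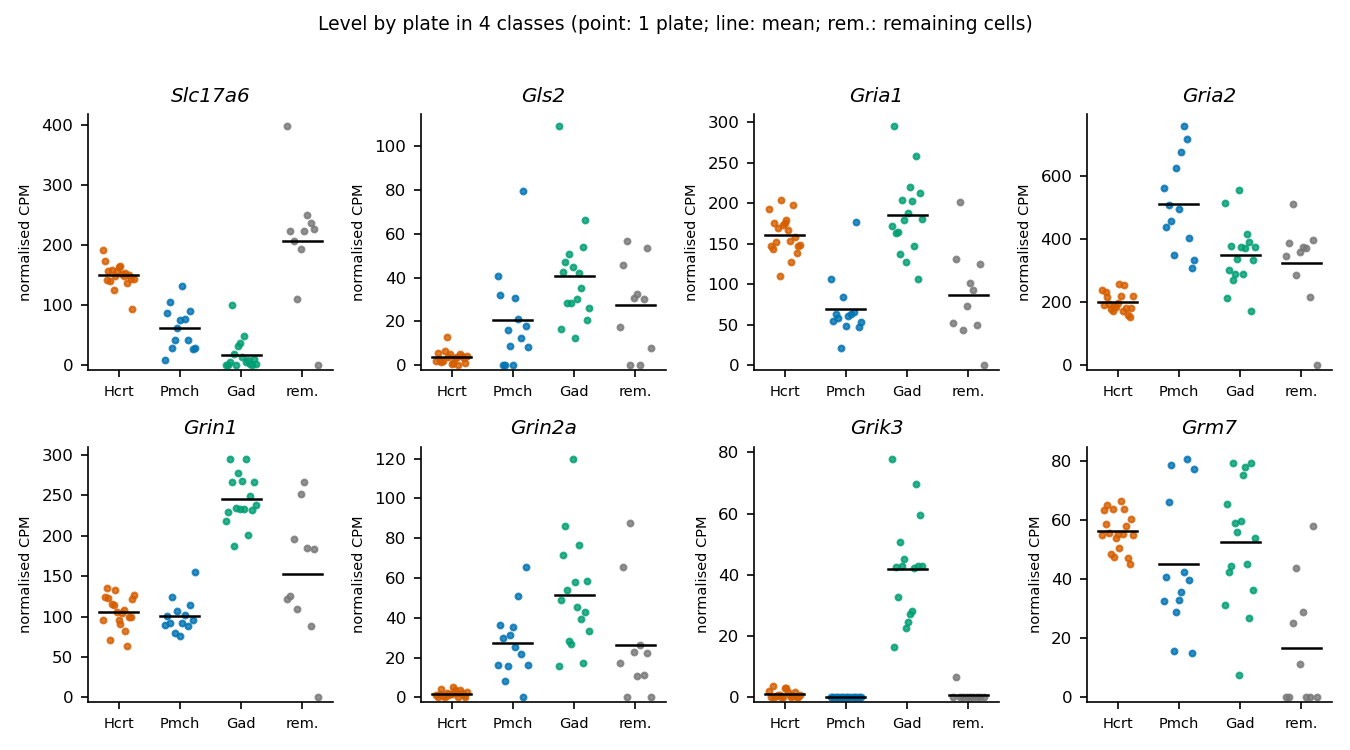
Normalised CPM of 8 genes (y axes start just under 0) by plate in the 4 classes; each point is 1 plate and the black line the mean. Hcrt plates lie apart from Gad plates for Grin1, Grin2a and Grik3, those of Gls2 meet at their ends (12.8 and 12.3), and the remaining cells of replicate 19 lie at 0 for Slc17a6, Gria1, Gria2 and Grin1.

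Among AMPA subunits, Gria2 and Gria3 were lower in Hcrt neurons than in Gad cells and in Pmch neurons, and Gria1 and Gria4 were higher than in Pmch neurons. Gria2 (chromosome 3, 80681450 to 80802835) ran from 152.5 through 190.9 to 255.9 normalised CPM in Hcrt neurons. It ran from 306.9 through 494.1 to 756.0 in Pmch neurons, from 172.0 through 352.6 to 555.2 in Gad cells and from 0 through 364.1 to 510.5 in remaining cells. All plates of Pmch neurons were above all plates of Hcrt neurons (log2 of Hcrt against Pmch -1.34 ± 0.10, adjusted p = 5.52e-14), while the plates of Gad cells overlapped them although each Gad value was above the Hcrt value of its own plate (-0.74 ± 0.08, 16 of 16 plates, adjusted p = 8.81e-11). Against remaining cells Gria2 was not called with all plates (-0.49 ± 0.32, adjusted p = 0.451), but it was without replicate 19 (-0.81 ± 0.18, adjusted p = 6.77e-04) and inside the neuron gate (-0.91 ± 0.17, adjusted p = 3.44e-05).

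Gria1, whose product joins synapses during potentiation, ran from 110.1 through 158.3 to 204.1 normalised CPM in Hcrt neurons and from 21.2 through 61.0 to 176.4 in Pmch neurons. It was higher in Hcrt neurons in 12 of 13 plates (log2 1.29 ± 0.17, adjusted p = 5.71e-08). Gad cells, at 184.7 ± 48.0, did not pass the test against Hcrt neurons (-0.14 ± 0.09, adjusted p = 0.221). Remaining cells had 86.9 ± 56.8, and the difference from Hcrt neurons narrowly missed the threshold (1.01 ± 0.33, adjusted p = 0.0547). Inside the neuron gate it was 0.69 ± 0.26 (adjusted p = 0.0788), and after thinning 0.76 ± 0.39 (0.409). It was called without the count filter (1.28, adjusted p = 0.0157), in the single fit of all 4 classes (0.81, 0.00696) and with Gad counts of at least 10 (0.74, 0.0282). Calls also came without replicate 4 (1.18, 0.0384) or 18 (1.14, 0.0493). Gria3 was at 12.3 ± 4.78 in Hcrt neurons, against 53.7 ± 28.2 in Pmch neurons (log2 -2.10 ± 0.30, 13 of 13 plates, adjusted p = 4.35e-07) and 39.2 ± 26.4 in Gad cells (-1.44 ± 0.27, 14 of 16 plates, adjusted p = 1.68e-05). Gria4 was 39.3 ± 10.3 in Hcrt neurons and 15.2 ± 18.3 in Pmch neurons (1.51 ± 0.38, 12 of 13 plates, adjusted p = 0.00165). This call was lost with at least 5 cells per plate (0.69 ± 0.40, adjusted p = 0.244) and after thinning (0.96 ± 0.40, adjusted p = 0.0557). With 3 of 13 Pmch plates at 0, Gria4 passed the filter there through the Hcrt neurons, so the p-value is no added support.

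As shares of all AMPA subunit counts, Gria2 held 48.3% ± 4.03 in Hcrt neurons (SD, n = 19 plates), 55.9% ± 10.2 in Gad cells (n = 16), 68.6% ± 6.09 in remaining cells (n = 9) and 78.4% ± 6.15 in Pmch neurons (n = 13). Counts come from transcript ends, so a share compares a subunit between classes and does not give the ratio of subunits. The Gria2 share was lower in Hcrt neurons than in Pmch neurons in 13 of 13 plates, than in remaining cells in 9 of 9 and than in Gad cells in 15 of 16. Gria1 held 39.2% ± 4.51 in Hcrt neurons against 10.96% ± 6.03 in Pmch neurons, 17.5% ± 5.39 in remaining cells, and was higher in Hcrt neurons than in Gad cells in 14 of 16 plates.

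**Figure D4:**
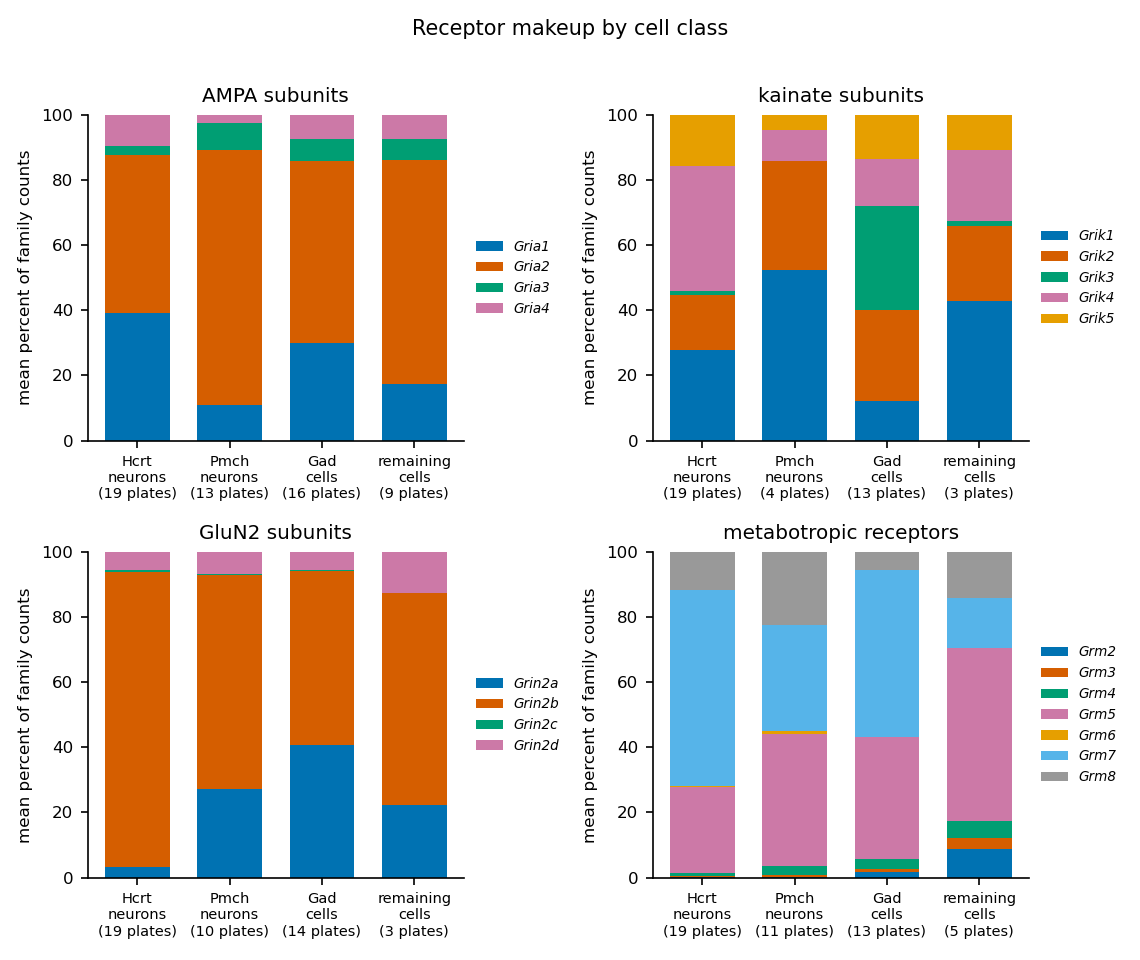
Mean share of counts of each receptor family held by each gene (y axis, percent; bars are means over plates with at least 3 cells and 20 counts of the family) in the 4 classes. Hcrt neurons have the lowest share of Gria2 and Grin2a and the highest of Grik4 and Grm7, and Grik3 is large in Gad cells.

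Grik3 (chromosome 4, 125490700 to 125714173) had 451 counts in Gad cells, spread over 148 of 327 cells and all 16 plates, where it ran from 16.4 through a median of 42.6 to 77.9 normalised CPM. Hcrt neurons had 52 counts in 32 of 1065 cells and ran from 0 through 0.690 to 3.78. Every plate of Gad cells was above every plate of Hcrt neurons, by 41.7-fold (log2 -5.38 ± 0.41 for Hcrt against Gad, adjusted p = 1.41e-15). The gene passed the filter through the Gad cells alone, and 6 of 19 Hcrt plates were at 0. The fold is therefore a rough size, and the p-value is no added support. Pmch neurons had 0 counts in 68 cells, which at a limit of 3 counts allows up to 4.41% of cells to hold a count, and says nothing of expression below detection, and remaining cells had 1 count in 71. After thinning, a Grik3 count was left in 35.9% of Gad cells (95% interval 30.2 to 42.0) and 1.497% of Hcrt neurons (0.840 to 2.46), and 0.971% of control wells (0.0246 to 5.29) had a count. Intervals and upper limits cover counting error only.

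Grik2 was also lower in Hcrt neurons, at 13.1 ± 5.74 normalised CPM, than in Gad cells, at 38.3 ± 18.7 (log2 -1.68 ± 0.26, 14 of 16 plates, adjusted p = 7.46e-07). Grik4 went the other way. It ran from 19.9 through 27.3 to 45.8 in Hcrt neurons, from 0 through 7.602 to 28.5 in Pmch neurons and from 6.11 through 16.2 to 52.2 in Gad cells, and it was higher in Hcrt neurons than in Pmch neurons by 1.77 ± 0.42 (12 of 13 plates, adjusted p = 8.64e-04) and than in Gad cells by 0.63 ± 0.23 (13 of 16 plates, adjusted p = 0.0280). Against Pmch neurons, with 3 of 13 Pmch plates at 0, Grik4 passed the filter through the Hcrt neurons, so that p-value is no added support. The Gad comparison lost its call with library totals (0.22 ± 0.23, adjusted p = 0.448) and without any of replicates 4, 9, 11, 14, 15 and 18, where the adjusted p ran from 0.0503 to 0.0627. It was also lost with all 4 classes in a single fit (0.68 ± 0.32, adjusted p = 0.0986). Peptide gates at 0.2% and outside cells under 0.2% of both peptides lost it too (0.60 ± 0.35 and 0.62 ± 0.35, adjusted p = 0.233 and 0.201). Grik1, at 20.6 ± 4.54 in Hcrt neurons, and Grik5, at 11.6 ± 2.74, were called in no comparison. In makeup, Grik4 held 38.3% ± 7.44 of kainate counts in Hcrt neurons (n = 19) and 14.5% ± 8.46 in Gad cells (n = 13), while Grik3 held 1.31% ± 1.49 and 31.9% ± 11.1. Pmch neurons and remaining cells reached 20 kainate counts on only 4 and 3 plates.

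In the NMDA family, Grin1 and Grin2a were lower in Hcrt neurons than in Gad cells. Grin1 (chromosome 2, 25291181 to 25319187), the subunit that every NMDA receptor needs, was 105.9 ± 19.9 normalised CPM in Hcrt neurons, with plates between 63.8 and 135.1, and ran from 76.0 through 95.3 to 154.8 in Pmch neurons. In Gad cells it ran from 187.6 through 236.5 to 295.1, so that no plate of Gad cells overlapped the Hcrt neurons (log2 -1.24 ± 0.09, 16 of 16 plates, adjusted p = 1.24e-16). Hcrt and Pmch neurons did not pass the test (0.12 ± 0.14, adjusted p = 0.542). Remaining cells ran from 0 through 153.9 to 266.3 and were called only inside the neuron gate (-0.73 ± 0.24, adjusted p = 0.0351; -0.33 ± 0.33, adjusted p = 0.676, with all cells). Grin1 shares 1307 exonic bases with the antisense gene Grin1os, which had 17 counts in Hcrt neurons and 0 in the other 3 classes.

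Grin2a (chromosome 16, 9567898 to 9995560) had 94 counts in 48 of 1065 Hcrt neurons, counts in 37 of 68 Pmch neurons, 496 in 121 of 327 Gad cells and 61 in 16 of 71 remaining cells. By plate it ran from 0 through 1.86 to 5.06 normalised CPM in Hcrt neurons, from 0 through 25.4 to 65.5 in Pmch neurons and from 15.6 upwards with a median of 47.2 in Gad cells. The ranges of Hcrt neurons and Gad cells did not overlap, and 4 of 19 Hcrt plates were at 0. The gene again passed the filter through the Gad cells alone, so the fold is a rough size and the p-value no added support. The difference was 24.6-fold (log2 -4.62 ± 0.33, adjusted p = 2.02e-16). With the Hcrt gate lowered to 0.2%, which moved cells from the Gad class into the Hcrt class, it was -2.83 (adjusted p = 6.30e-07). Grin2a was under the filter against Pmch neurons and remaining cells. Without the filter the log2 values of Hcrt neurons were -3.78 ± 0.48 and -3.57 ± 0.81, on Hcrt sums near 0. Grin2a was lower in Hcrt neurons in 12 of 13 and 8 of 10 plates. After thinning, 2.695% of Hcrt neurons (95% interval 1.78 to 3.90), 32.4% of Pmch neurons (21.5 to 44.8), 32.2% of Gad cells (26.7 to 38.2) and 16.7% of remaining cells (8.29 to 28.5) kept a Grin2a count.

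Grin2b differed far less. It was 52.3 ± 10.1 normalised CPM in Hcrt neurons, 77.6 ± 28.9 in Pmch neurons (log2 -0.56 ± 0.19, 10 of 13 plates, adjusted p = 0.0194) and 65.1 ± 22.4 in Gad cells (-0.39 ± 0.15, 13 of 16 plates, adjusted p = 0.0328). Both calls were lost without the count filter (-0.36 and -0.23), and without single plates: replicates 8 or 10 against Pmch neurons (adjusted p 0.0534 to 0.0538), and replicates 4, 8, 9, 12, 14 or 17 against Gad cells (0.0594 to 0.0799). A single fit of all 4 classes also lost both (-0.54 and -0.39, adjusted p = 0.0767 and 0.164). The Pmch call was further lost with at least 5 cells (-0.43, adjusted p = 0.291), and the Gad call after thinning (-0.36, adjusted p = 0.104). Of the counts of the 4 Grin2 genes, Grin2b held 90.7% ± 4.70 and Grin2a 3.19% ± 2.41 in Hcrt neurons (n = 19). In Gad cells the shares were 53.4% ± 13.7 and 40.8% ± 14.7 (n = 14), and in Pmch neurons 65.5% ± 15.8 and 27.4% ± 14.1 (n = 10). The Grin2a share was lower in Hcrt neurons in 14 of 14 plates against Gad cells and in 9 of 10 against Pmch neurons. With the 0.2% gate it was 10.6% in the Hcrt class. Grin3a, which lowers the calcium current of NMDA receptors, was at 46.3 ± 10.3 in Hcrt neurons and between 41.2 and 62.8 in the other classes, and was called in no comparison. Grin2d was between 3.17 and 11.3 in the 4 classes, Grin2c under 0.5 and Grin3b at or under 1.01; Grin3b shares 1059 exonic bases with Tmem259, which stood between 99.9 and 105.5 in the 4 classes.

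**Figure D5:**
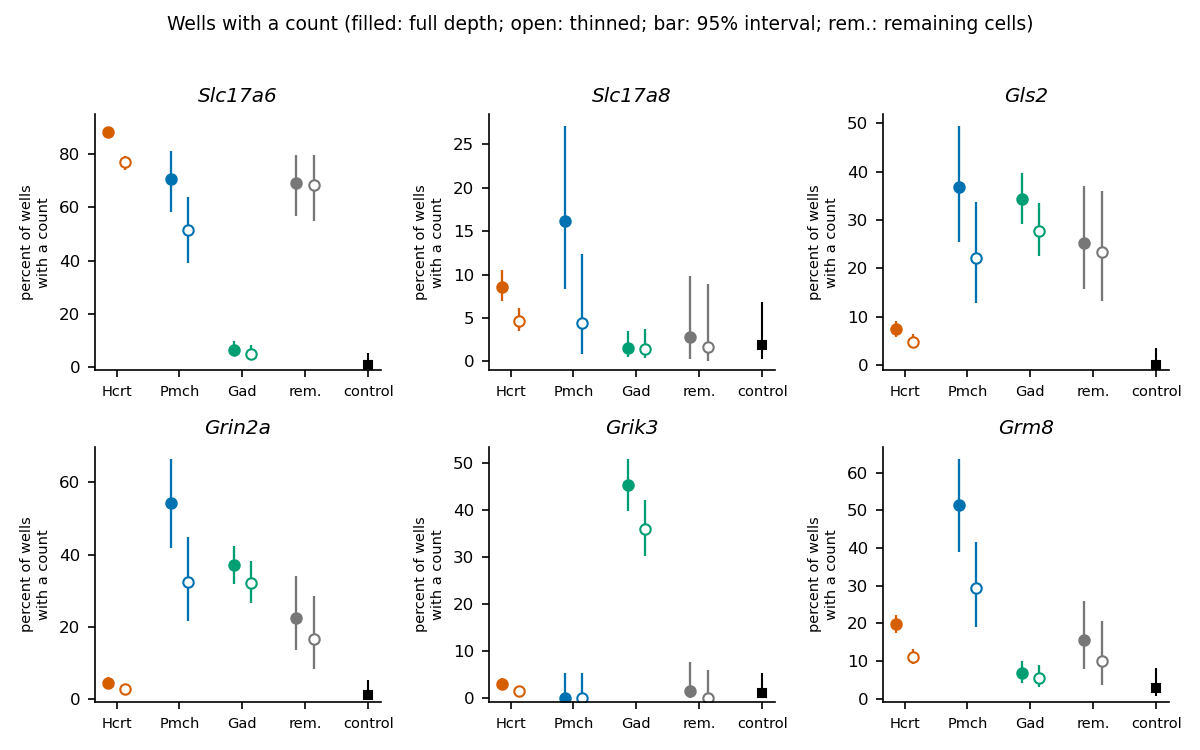
Percent of wells with a count (y axis; bars are exact 95% intervals) of 6 genes at full depth (filled) and after thinning (open) in the 4 classes, with control wells as black squares. Grin2a and Gls2 counts are rarer in Hcrt neurons than in the other 3 classes at both depths, and Grik3 counts are common only in Gad cells.

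Among metabotropic receptors, Grm7, Grm5 and Grm8 held most counts in Hcrt neurons. Grm7, a receptor of axon terminals, ran from 45.1 through a median of 55.5 to 66.6 normalised CPM in Hcrt neurons and was at 45.2 ± 23.0 in Pmch neurons and 52.6 ± 20.9 in Gad cells, neither of which passed the test. Remaining cells ran from 0 through 5.72 to 58.0, with 5 of 10 plates at 0, and Hcrt neurons were higher in 10 of 10 plates (log2 2.15 ± 0.57, adjusted p = 0.0129). Grm7 passed the filter there through the Hcrt neurons alone, so the fold is a rough size and the p-value no added support. Inside the neuron gate the value was 2.23 ± 0.57 (adjusted p = 0.00297). It lost its call without replicate 14 (1.81 ± 0.58, adjusted p = 0.0509), after thinning (2.16 ± 0.66, adjusted p = 0.0945) and with library totals (1.65 ± 0.59, adjusted p = 0.0979). The call was also lost with at least 5 cells per plate (1.95 ± 0.70, adjusted p = 0.131). Peptide gates at 0.2% and outside cells under 0.2% of both peptides lost it too (2.23 ± 0.78 and 2.24 ± 0.78, adjusted p = 0.0894 and 0.0806).

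Grm5, which couples to calcium release and is mostly postsynaptic, was 24.6 ± 4.95 normalised CPM in Hcrt neurons and 57.1 ± 30.5 in Pmch neurons (log2 -1.14 ± 0.28, 10 of 13 plates, adjusted p = 0.00137). Gad cells had 36.9 ± 16.98 (-0.61 ± 0.20, 13 of 16 plates, adjusted p = 0.0111), a call lost without the count filter (-0.45, adjusted p = 0.228), with all 4 classes in a single fit (-0.63, 0.0746), with peptide gates at 0.2% (-0.41, 0.377), with outside cells under 0.2% of both peptides (-0.60, 0.176) and after thinning (-0.56, 0.0690). Grm8 ran from 4.53 through 11.7 to 18.4 in Hcrt neurons and from 0 through 25.5 to 84.6 in Pmch neurons, and was lower in Hcrt neurons in 9 of 13 plates (-1.22 ± 0.41, adjusted p = 0.0201). That call was lost without replicate 5 or 10 (-1.06 and -1.01, adjusted p = 0.0576 and 0.0607). Against Gad cells, at 5.12 ± 5.65, Grm8 was higher by 0.96 ± 0.40 in 12 of 16 plates and missed the threshold (adjusted p = 0.0525). It was called with DESeq2 (adjusted p = 0.0289), without the count filter (0.0429) and without the block (0.0352). Leaving out any of replicates 3, 5, 9, 12, 14 and 18 also gave a call (0.0345 to 0.0474), so the call depends on the setting. As shares of metabotropic counts, Grm7 held 60.1% ± 6.27 in Hcrt neurons (n = 19), 51.0% ± 13.9 in Gad cells (n = 13), 32.5% ± 20.1 in Pmch neurons (n = 11) and 15.5% ± 16.1 in remaining cells (n = 5), while Grm5 held 26.3% ± 4.74, 37.5% ± 14.1, 40.5% ± 15.7 and 53.1% ± 21.2. Grm2, Grm3, Grm4 and Grm6 had between 13 and 44 counts each in 1065 Hcrt neurons.

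Grid1, a delta receptor that joins synapses through secreted cerebellins, ran from 15.1 through 26.5 to 43.5 normalised CPM in Hcrt neurons and from 0 through 9.10 to 29.0 in Pmch neurons. It was higher in Hcrt neurons in 12 of 13 plates (log2 1.67 ± 0.44, adjusted p = 0.00281). With 5 of 13 Pmch plates at 0, Grid1 passed the filter there through the Hcrt neurons, so the p-value is no added support. Gad cells, at 34.6 ± 20.7, and remaining cells, at 10.6 ± 13.4, did not pass the test against Hcrt neurons (-0.18 ± 0.23 and 1.30 ± 0.61, adjusted p = 0.584 and 0.231). Inside the neuron gate the value against remaining cells was 0.99 ± 0.63 (adjusted p = 0.383).

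Other genes moved with these results and their part was not tested. All 8 pan-neuronal genes were lower in Hcrt neurons than in Pmch neurons (median log2 -0.78), and 5 of 8 were lower and 3 higher against Gad cells (median -0.57). After thinning to equal depth 5 of 9 tested members were called between Hcrt and Pmch neurons, namely Gria1, Gria2, Grin2b, Slc17a6 and Slc38a1. Over all 4580 genes tested there, 715 were called higher in Hcrt neurons and 654 lower. The summed oligodendrocyte list ran from 35.9 to 1570 CPM over plates of Hcrt neurons from 10.4 to 77.6 in Pmch neurons and from 41.4 to 951.6 in Gad cells. Within the neuron gate 12 members were called against Gad cells and 12 against Pmch neurons. Over all genes, 2014 were higher and 1584 lower of 9256 against Gad cells, and 1355 and 1025 of 7776 against Pmch neurons.

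In a list of 18 genes of auxiliary subunits, whose proteins travel with AMPA and kainate receptors, 5 of 14 tested genes were higher in Hcrt neurons than in Gad cells and 1 lower, 5 of 12 were higher and 1 lower than in Pmch neurons, and 3 of 12 were higher than in remaining cells. Over all genes tested, 39.0%, 30.6% and 6.98% were called in these comparisons, with 21.7%, 17.5% and 6.27% of tested genes higher, so nothing particular to the list is read from its counts. Shisa6, which holds AMPA receptors at synapses, was at 44.7 ± 12.6 normalised CPM in Hcrt neurons and passed the filter through them alone. It had 2081 counts in Hcrt neurons, 12 in Pmch neurons, 7 in Gad cells and 3 in remaining cells, where 11 of 13, 14 of 16 and 9 of 10 plates were at 0. It was called higher in Hcrt neurons against each class (adjusted p = 4.88e-08, 1.44e-15 and 9.85e-06), with no fold given over groups so near 0. Cacng3, a TARP that slows AMPA currents, was at 157.6 ± 14.7 in Hcrt neurons, 39.1 ± 24.9 in Gad cells, 45.6 ± 34.9 in remaining cells and 4.15 ± 5.80 in Pmch neurons, and all plates of Hcrt neurons were above all plates of each other class. Neto1, an auxiliary subunit of kainate receptors, was higher in Hcrt neurons by 1.61 ± 0.30, 1.72 ± 0.40 and 2.50 ± 0.73 against Gad cells, Pmch neurons and remaining cells (adjusted p = 1.60e-05, 8.45e-04 and 0.0234). In these classes Neto1 was at 0 on 3 of 16, 5 of 13 and 6 of 10 plates. It passed the filter through the Hcrt neurons, so the p-values are no added support. Shisa7 was lower than in Gad cells (-2.11 ± 0.36, adjusted p = 3.10e-06), and Olfm2 lower than in Pmch neurons (-2.44 ± 0.15, adjusted p = 5.80e-17). Shisa7, at a mean of 4.12 in Hcrt neurons on the tested plates, passed the filter through the Gad cells, so its p-value is no added support.

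In a list of 27 postsynaptic scaffolds and kinases, 2 of 20 tested genes were higher in Hcrt neurons than in Gad cells and 5 lower, and 4 of 17 were higher and 4 lower than in Pmch neurons, beside 21.7% higher and 17.2% lower, and 17.5% higher and 13.2% lower, over all genes tested. Nsf, an ATPase that recycles AMPA receptors and vesicle proteins, was 131.0 ± 28.4 normalised CPM in Hcrt neurons and 445.0 ± 93.0 in Gad cells, with no overlap between plates (-1.76 ± 0.09, adjusted p = 1.42e-22). Dlg3, a scaffold of NMDA receptors, and the synaptic adhesion gene Lrrtm4 were lower than in Gad cells by -1.95 ± 0.31 and -2.06 ± 0.27 (adjusted p = 9.42e-07 and 9.71e-09). Both passed the filter there through the Gad cells, with Hcrt means of 6.00 and 7.94 on the tested plates, so these p-values are no added support. Against Pmch neurons the list went both ways. The adhesion genes Nlgn1, Lrrtm1 and Lrrtm4 were lower by -1.75 ± 0.18, -1.71 ± 0.25 and -2.08 ± 0.34 (adjusted p = 1.92e-10, 6.21e-07 and 4.91e-06), as was Lrrtm2 by -0.66 ± 0.25. The adhesion gene Nlgn3 was higher by 3.02 ± 0.51 in 13 of 13 plates (adjusted p = 8.89e-06), as were Homer2, Camk2a and Dlgap4 by 2.75 ± 0.49, 1.84 ± 0.41 and 0.93 ± 0.17. These 4 and Lrrtm2 were named after their values were seen. In Pmch neurons Nlgn3 and Homer2 were each at 0 on 8 of 13 plates and Camk2a on 3. Nlgn3, Homer2 and Camk2a passed the filter through the Hcrt neurons. Their folds are therefore rough sizes, and the p-value of Nlgn3 is no added support. Against remaining cells Nsf was the 1 gene called of 16 tested (-1.16 ± 0.29, adjusted p = 0.00808). Of 12 genes of glutamate uptake and metabolism, 6 were tested against Gad cells, of which Asns was higher (0.62 ± 0.13) and Got1 and Got2 lower (-0.56 ± 0.07 and -0.39 ± 0.10), named after their values were seen. Of 7 gene names in a list on making, moving and breaking down the co-agonists of NMDA receptors, 1 was not in the table, and Srr, which makes D-serine, was lower than in Pmch neurons (-1.01 ± 0.35, adjusted p = 0.0235) and was the only gene of its list tested there.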

How the data were processed

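Single cells were measured with Smart-SCRB, a plate method that barcodes each well. The authors deposited a table of raw counts, genes by wells, and a table of wells with the number of genes detected. Per the submitters' processing notes the tools were bcl2fastq 2.20, cutadapt 2.1.0, STAR and STARsolo 2.7.5c on GRCm38, and Seurat 2.3.4 and R 3.4.3 are listed. Annotation release, strand and collapsing of molecular identifiers are not given in the sources used here. Rows that are not mouse genes (spike-ins and transgenes) held 3.35% of counts and were left out.

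Here counts were summed per plate and class where both classes had at least 3 cells, and tested with edgeR 4.0.16 in R 4.3.3 (TMM scaling, its filterByExpr filter and its quasi-likelihood test with robust fitting, with the plate as a block). Benjamini-Hochberg adjustment ran over all genes tested, with a threshold of 0.05, two-sided. Standard errors were taken from the log2 value and the F statistic (size over root F). Normalised CPM come from a single TMM scaling over all plate and class sums. Plates came from 7 mice with no link between plate and mouse, so p-values measure the spread between plates and may be too small. Receptor shares carry no test. Intervals are exact (Clopper-Pearson). Doublets were not called, because cells were picked singly. Thinning to 16000 counts left out 131 cells (63 Hcrt neurons, 57 Gad cells and 11 remaining cells). Data were simulated with the count totals of the same plates, a shared mean profile, no plate effect and a single dispersion for all genes. On them the test recovered 87.8% of 98 genes changed 2-fold and 100% of 99 changed 4-fold for Hcrt neurons against Gad cells, with 9257 genes tested. This is not the power of the real design, whose spread differs by gene and plate. Gene annotation was taken from GENCODE M21, which held 99.6% of the identifiers and all 30 members.

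The members, lists and classes were chosen with earlier results of these data known. Values in full are given for members called with an absolute log2 value of at least 1 in some comparison and for Slc17a6, Slc17a7, Slc17a8, Gls2, Slc1a1 and Slc38a1. Of each of 4 partner lists up to 3 called genes per comparison are named, by the smallest adjusted p among those with an absolute log2 value of at least 1. Alternatives were DESeq2 1.42.0, no count filter, library totals, peptide counts taken out, at least 5 cells, no block, all 4 classes in a single fit, other gates, thinning and leaving out each plate.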

Additional observations from a re-analysis of the deposited data

Results flagged for a closer look

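In the remaining cells, 6 of the 26 groups of 4 to 10 plates checked had a plate set apart from the others beyond Dixon's limit. The limit is made for normal values, and sparse sums with plates at 0 can pass it on 1 count. The number of flags is therefore not set against chance. Grik1 reached 100.8 normalised CPM on replicate 9 (28 counts, the next plate at 52.0), Grik4 45.99 on replicate 3 (7 counts, next 19.1), Grm2 63.03 on replicate 4 (10 counts, next 5.52) and Slc1a1 86.62 on replicate 2 (5 counts, next 44.0). Grik3 and Slc17a8 each stood at 6.571 on replicate 3 from 1 count, with every other plate at 0. These sums hold 3 to 11 cells a plate.

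A well outside the comparisons carried a strong signal. The well labelled Empty on replicate 15 held 100707 counts, 5682 genes and 67 counts of Gad1 plus Gad2, with 0.158% of its counts in Hcrt. It had 151 counts of the 30 genes, among them Gria2 with 46, Gria1 with 35, Slc38a1 with 26, Grik3 with 12 and Slc17a6 with 0, where all control wells together had 28.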

How the results depend on the processing

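The number of members called in Hcrt neurons against Gad cells (12) stayed between 9 and 17 in every alternative and between 10 and 13 with any plate left out. Against Pmch neurons (12) it was 5 after thinning, where 9 members were left to test, and 10 to 12 with any plate left out. Against remaining cells (1) it was 6 without the count filter, 0 with library totals, 2 with at least 5 cells, 8 with all 4 classes in a single fit, 0 with peptide gates at 0.2%, 3 with Gad counts of at least 10, 4 inside the neuron gate, 0 after thinning (where 7 were tested) and 0 to 3 with any plate left out: 0 without replicate 14, 2 without replicates 3, 4 or 18 and 3 without replicate 19. For Gad cells against remaining cells (1) it was 3 with DESeq2, 4 without the filter, 2 with at least 5 cells, 5 in the single fit, 0 with peptide gates at 0.2% or with outside cells under 0.2% of both peptides, and 0 to 1 with any plate left out, 0 being without replicate 4, where Slc17a6 was not among the genes tested. Without the replicate block the 4 counts were 13, 12, 2 and 1. The calls over all genes against remaining cells were 474 higher and 53 lower of 7554. They were 402 and 278 with DESeq2 and 155 and 235 with library totals, where the median moved from 0.28 to -0.24. Without the filter 890 and 238 of 31193 were called, with at least 5 cells 287 and 121 of 8332, and in the single fit 1052 and 476 of 8094. With Gad counts of at least 10 they were 774 and 150 of 7772, and inside the neuron gate 675 and 150 of 7366. For Gad cells against remaining cells they were 30 and 7 of 4633, and 325 and 156 of 8094 in the single fit. The member counts are not read as particular to these genes. No called member changed sign under any alternative, and 56 sign changes concerned values called in neither setting. The cause of these changes was not tested.

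Pmch neurons were tested on 61 cells and remaining cells on 59.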
